A study of Mus musculus with 2 samples.

Results

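The mouse MHC genes described here are the 34 protein-coding genes of the GENCODE vM21 annotation whose symbol starts with H2 and a hyphen, out of 21938 protein-coding genes. All 34 lay on chromosome 17 of mm10, between bases 33996017 and 37483552. By their names, 24 encode class I heavy chains and 9 encode class II chains. Of the class I genes, H2-K1 and H2-D1 are classical and 22 (6 H2-Q, 4 H2-T and 12 H2-M genes) are non-classical. The remaining gene, H2-Ke6, carries the prefix but encodes a steroid dehydrogenase and no MHC protein, so it entered neither class. DNase-seq, which maps open chromatin by the ends of DNA that the enzyme DNase I releases, was run on liver of mouse embryos at day 13.5. The embryos were of strain C57BL/6N,129 and carried an LCR deletion (read here as the locus control region of the beta-globin genes) and a HET globin mutation, a term that the labels do not explain. The 2 libraries are biological replicates 1 and 2 of this 1 group, made from separate biosamples under the same donor identifier, with sex not collected. Both carry the alleles, no control group was used, and no difference between genotypes can be read from these data.

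MHC class I molecules pair a heavy chain with beta-2-microglobulin and show peptides from inside the cell to cytotoxic T cells, and most nucleated cells of an adult make them. Class II molecules are pairs of an alpha and a beta chain that show peptides from outside the cell to helper T cells, mainly on dendritic cells, macrophages and B cells. Promoters of both classes are known to share a module of X and Y boxes, bound by RFX, CREB-type factors and NF-Y, on which the coactivators Nlrc5 (class I) and Ciita (class II) act. Class I promoters also carry a site for NF-kappaB and one for interferon regulatory factors.

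The promoters of H2-K1, H2-Aa, H2-Eb1 and H2-Eb2 are shown first, with their bases before the start, because peaks and footprints fell there in some and not in others. A footprint is a short stretch inside open chromatin that the authors list as protected from cleavage. The windows are RefSeq promoter sequences on build GRCm38.p6, printed 5′ to 3′ on the gene's own strand, and capitals mark bases inside a footprint of either library. H2-K1 is at chr17:34000348-34000547 on the minus strand. H2-Aa is at chr17:34287824-34288023 on the minus strand. H2-Eb1 is at chr17:34305667-34305866 and H2-Eb2 at chr17:34325475-34325664, both on the plus strand.
H2-K1: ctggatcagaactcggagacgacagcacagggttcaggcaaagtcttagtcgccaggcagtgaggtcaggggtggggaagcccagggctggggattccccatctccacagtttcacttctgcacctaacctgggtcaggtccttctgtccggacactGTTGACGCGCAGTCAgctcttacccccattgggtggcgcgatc
H2-Aa: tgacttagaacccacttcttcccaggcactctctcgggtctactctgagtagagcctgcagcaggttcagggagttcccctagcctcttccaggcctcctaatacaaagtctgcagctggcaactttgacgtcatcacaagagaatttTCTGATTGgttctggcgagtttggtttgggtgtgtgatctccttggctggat
H2-Eb1: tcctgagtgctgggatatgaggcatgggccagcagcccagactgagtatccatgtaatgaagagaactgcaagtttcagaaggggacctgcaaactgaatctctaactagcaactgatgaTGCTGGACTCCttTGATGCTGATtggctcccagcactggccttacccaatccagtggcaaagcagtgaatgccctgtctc
H2-Eb2: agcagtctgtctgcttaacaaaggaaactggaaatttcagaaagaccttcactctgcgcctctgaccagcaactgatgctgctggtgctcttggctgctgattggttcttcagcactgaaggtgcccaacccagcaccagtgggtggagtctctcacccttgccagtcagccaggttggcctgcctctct

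A shared element of class I promoters is shown next, because it held footprints in some genes and none in others. The letters searched were GA, any base, ACTG, any base and TGAC, a pattern chosen after the sequences had been seen. On the gene's strand they occurred in 7 members, all of class I. When both strands were searched, they occurred in 19 of 16515 RefSeq promoter windows of protein-coding genes (0.115%), the 7 members included. The pattern was drawn from these members, so its rarity elsewhere is no evidence about them. Each window below is 30 bases long, starts 6 bases before the pattern, lies on the gene's strand, and has footprint bases in capitals. The windows are at chr17:34000373-34000402 (minus strand) for H2-K1, chr17:35262979-35263008 for H2-D1, chr17:35379499-35379528 for H2-Q4 and chr17:35424733-35424762 for H2-Q6. Those of H2-Q7, H2-M3 and H2-M2 are at chr17:35439077-35439106, chr17:37270174-37270203 and chr17:37483633-37483662 (minus strand).
H2-K1: tgtccggacactGTTGACGCGCAGTCAgct
H2-D1: tgCCGGGACACTGATGACGCGCTGGcaggt
H2-Q4: tgcccggacactgATGACTTactggcagtt
H2-M3: tgcccggaTACTGATGACGcTTCTCCAATT
H2-Q6: tgccaggacactgatgacctgtaacagttc
H2-Q7: tgccaggacactgatgacgtgtaacagttc
H2-M2: tgcatggacactgatgactatgctccaatt
The first 4 of these genes had a promoter peak in both libraries, and each held a footprint in this window in at least 1 library. H2-K1, H2-D1 and H2-M3 held one in both. For H2-M3 the replicate 1 footprint, at -40 to -24 from the RefSeq start, lay past the pattern itself, at -54 to -43. Only replicate 2 had a footprint over the pattern there. H2-Q6 and H2-Q7, which had a promoter peak in 1 library each, and H2-M2, which had none, held no footprint there.

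A promoter was called open when each library had a peak of the longer deposited list within 1000 bases of any annotated start of the gene. By that rule 10 of the 34 MHC genes were open in both libraries (29.4%), against 54.1% of all protein-coding genes. Open in both were H2-K1, H2-D1, H2-Q4, H2-T24, H2-T23 and H2-M3 of class I, H2-DMa, H2-Ab1 and H2-Eb1 of class II, and H2-Ke6. Class I had 6 of 24 genes open in both libraries (25%) and class II had 3 of 9 (33.3%). Replicate 1 alone gave 14 members against 58.5% of all genes, and replicate 2 alone gave 11 against 55.4%. Of the others, 4 had a peak only in replicate 1 (H2-DMb2, H2-Aa, H2-Q7, H2-Q10), 1 only in replicate 2 (H2-Q6) and 19 in neither, whereas 59.8% of all genes had a promoter peak in at least 1 library. With 2 libraries of 1 group there is no test between classes, and the counts describe these libraries.

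Each peak carries a value, the cleavage signal normalised for depth by the authors. It comes in whole steps of 0.0123 in replicate 1 and 0.0139 in replicate 2, and the 95% Poisson intervals below rest on the assumption that 1 step is 1 read. They cover counting error only. Ratios between libraries are given as the excess log2 ratio, replicate 2 over replicate 1, from which the median of shared peaks with similar values has been subtracted. Over 26687 peaks shared one to one, 90% of these ratios lay between -0.67 and 0.65.

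Of the classical class I genes, which encode the heavy chains that present peptides on most cells, H2-D1 had the higher promoter peak. H2-D1 reached 4.45 (95% interval 4 to 4.93) in replicate 1 and 3.34 (2.93 to 3.79) in replicate 2, at chr17:35262881-35263120 in the first library. In both libraries that peak began 151 bases past the first coding start of H2-D1. H2-K1 reached 2.87 (2.51 to 3.26) and 1.61 (1.33 to 1.93), across an annotated start. In replicate 1 the H2-K1 peak also crossed the first coding start, and in replicate 2 it lay 7 to 176 bases past it. The intervals of H2-D1 and H2-K1 did not overlap in either library. They do not cover the repeated sequence at these starts, described below. The excess log2 ratio was 0.22 for H2-D1 and -0.36 for H2-K1, both inside the middle range of shared peaks. Both values of H2-D1 fell near the middle of all genes with a promoter peak, at the 44.7th and 46.4th percentile, and those of H2-K1 lower, at the 32.7th and 21.8th. A second H2-K1 peak of 1.33, wholly inside the gene, was listed only in replicate 1.

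Among the non-classical class I genes, H2-T24 had the highest promoter peak, 3.24 (2.86 to 3.66) in replicate 1 and 3.04 (2.65 to 3.47) in replicate 2. It ended 61 and 21 bases before the annotated start. H2-T23, which encodes the Qa-1 molecule that natural killer cells survey, had several adjoining peaks in each library, the highest at 1.49 (1.24 to 1.78) and 1.29 (1.04 to 1.58). The highest peaks of H2-T23 were not the same stretch: in replicate 1 it lay at least 481 bases inside the nearest start, and in replicate 2 it ran across a start. H2-M3, whose product presents formylated bacterial peptides, had 1.1 (0.881 to 1.35) and 1.32 (1.07 to 1.61) across its start. H2-M3 was the one open class I gene whose value was higher in replicate 2, with an excess log2 ratio of 0.64, still inside the middle range. H2-Q4 was lowest of those open in both, at 0.789 (0.607 to 1.01) and 0.721 (0.538 to 0.945). A start of Gm11131, which is not a member, lay within 1000 bases of the H2-Q4 peak.

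The remaining H2-Q genes differed between the libraries. H2-Q7, a source of the Qa-2 molecule, had 3 peaks in replicate 1, of 0.813, 1.16 and 0.789, and none in replicate 2. H2-Q6 had none in replicate 1 and a peak of 1.05 (0.83 to 1.32) in replicate 2, 831 bases inside the gene. H2-Q10, which encodes a secreted class I molecule of the liver, had 3 low peaks inside the gene in replicate 1, of 0.481, 0.554 and 0.518, and none in replicate 2. H2-Q1 and H2-Q2 had no peak in either library. A gene without a listed peak is one below the threshold of the authors' peak caller in that library, and the sources used here do not name the threshold.

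**Figure D1:**
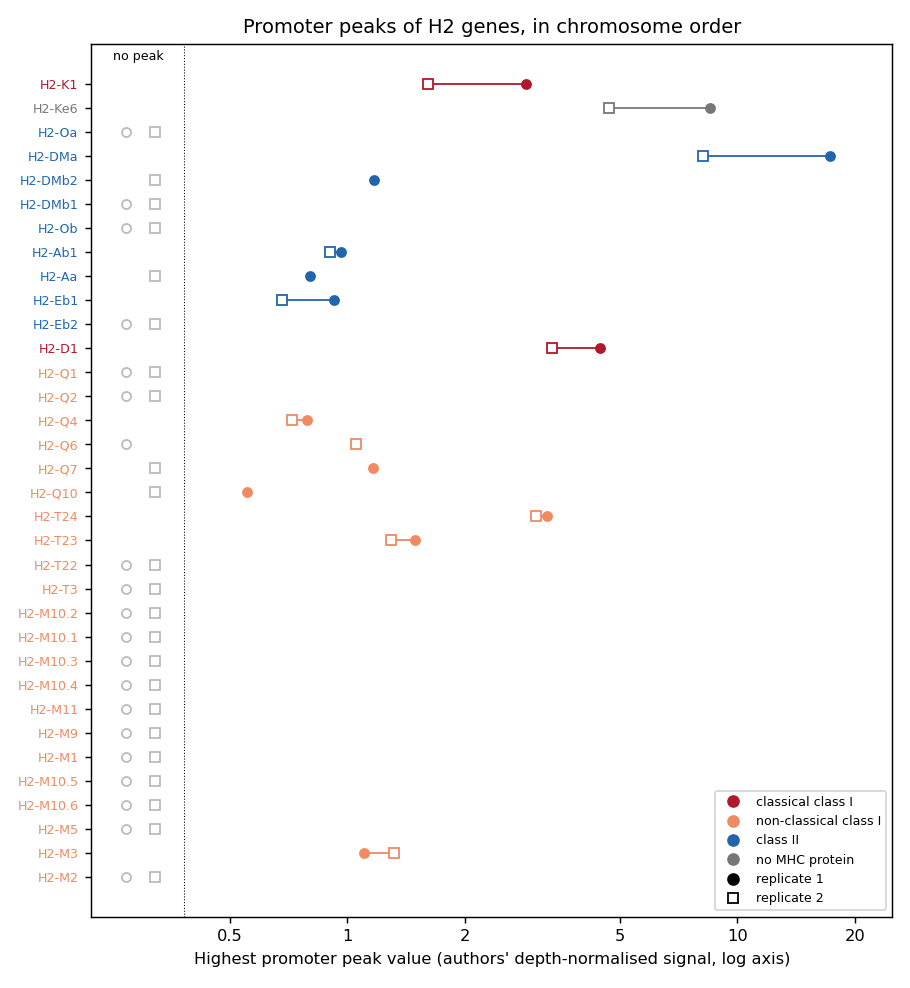
Highest promoter peak value of each of the 34 genes in chromosome order (log axis, the authors' signal), with filled circles for replicate 1 and open squares for replicate 2, coloured by class; grey symbols left of the dotted line mark a library with no peak. H2-DMa stands highest at 17.3 and 8.16, H2-Ke6 follows, and the H2-M genes other than H2-M3 have no peak.

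In class II, the genes for the peptide-binding I-A and I-E molecules had low peaks. Across its first coding start, H2-Ab1, the I-A beta chain, showed peaks of 0.961 (0.76 to 1.2) and 0.901 (0.695 to 1.15). H2-Ab1 also had a peak of the same value, 0.961, at its upstream start in replicate 1 and one of 0.638 inside the gene in replicate 2. H2-Eb1, the I-E beta chain, reached 0.912 (0.716 to 1.14) and 0.679 (0.503 to 0.898), ending 11 and 31 bases before its start. The start of Gm20513, which is not a member, lies within 1000 bases of that H2-Eb1 peak. A peak of 0.924 inside H2-Eb1 was listed only in replicate 1. H2-Aa, the I-A alpha chain, had 0.801 (0.618 to 1.02) across its start in replicate 1 and none in replicate 2. The intervals of these 3 genes overlapped wherever both had a peak in a library. H2-Eb2 had none in either.

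The class II genes of the loading machinery fell at both ends of the range. H2-DMa encodes the alpha chain of H2-DM, which edits the peptides class II molecules carry, and had the highest promoter peak of all members, 17.3 (16.4 to 18.2) in replicate 1 and 8.16 (7.52 to 8.85) in replicate 2. That peak lies at a start that H2-DMa has in the annotation beside starts of CR974462.3 and of Brd2, a chromatin reader gene expressed in most cells. The second peak of H2-DMa, 11 and 7.31, lies nearer to a start of Brd2 than to its own, and the signal of the genes cannot be told apart there. Another peak, at chr17:34135321-34135520 in both libraries, had no start of another gene within 1000 bases and reached 8.56 (7.94 to 9.22) and 4.8 (4.3 to 5.33). It lies 12489 bases past the first coding start, before an annotated start inside the gene. The gene for one H2-DM beta chain, H2-DMb2, had 1.17 (0.947 to 1.43) in replicate 1 and none in replicate 2. H2-DMb1, the other, had none, and neither had H2-Oa and H2-Ob, which encode the H2-DO molecule that restrains H2-DM.

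This internal H2-DMa peak held the letters searched for CTCF (CC, any 3 bases, AGG, any base, GGC), and they lay in footprints of both libraries. The footprints of replicate 1 that hold them are printed whole, in plus-strand letters, at chr17:34135358-34135383 and chr17:34135412-34135438. Those of replicate 2 overlapped them.
H2-DMa footprint upstream: TTCTGCCGCCAGGCGGCGCTGCTTTG
H2-DMa footprint downstream: CGACCTTCCACCAGGGGGCGGAGGTCT
CTCF is the insulator protein that anchors chromatin loops. A match of letters is a description and no evidence that the factor was bound.

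H2-Ke6, the gene of the set with no part in antigen presentation, had higher peak values than any member but H2-DMa, 8.51 (7.89 to 9.17) and 4.69 (4.2 to 5.21), across its start. Its values ranked at the 68.5th and 64.9th percentile of open promoters.

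Outside H2-DMa and H2-Ke6, every open MHC promoter lay below the median of all open promoters in both libraries. The median over class I genes with a peak was 1.32 in both libraries (8 genes in replicate 1 and 7 in replicate 2). Over class II genes it was 0.961 and 0.901 (5 and 3 genes). All genes with a promoter peak had a median of 5.21 and 3.6, with quartiles of 1.97 and 10.1 in replicate 1 and of 1.84 and 5.5 in replicate 2. Outside H2-DMa and H2-Ke6, the members above the lower quartile were H2-K1, H2-D1 and H2-T24 in replicate 1 and H2-D1 and H2-T24 in replicate 2. The class I and class II values overlapped in both libraries, and so few class II genes had a peak that its median rests on H2-Ab1 alone in replicate 2. Leaving out peaks nearer to another gene's start, a choice made after seeing the data, removed H2-Eb1 and moved that median to 4.53.

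**Figure D2:**
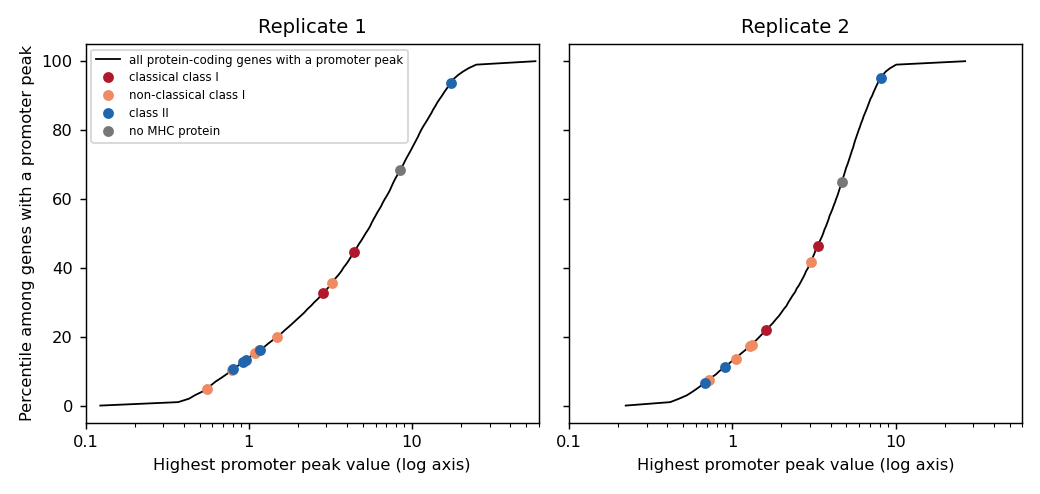
Percentile of each member among all protein-coding genes with a promoter peak (y axis, %) against its highest promoter peak value (x axis, log scale), with replicate 1 at left and replicate 2 at right; the line is the distribution over all such genes. The peptide-presenting genes of both classes sit at or below the 46.4th percentile, and H2-DMa and H2-Ke6 above the 64th.

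The 19 genes with no promoter peak in either library were H2-Oa, H2-DMb1, H2-Ob, H2-Eb2, H2-Q1, H2-Q2, H2-T22, H2-T3 and 11 of the 12 H2-M genes. H2-T22 encodes a ligand of gamma-delta T cells and H2-T3 the thymus leukaemia antigen of gut epithelium. The H2-M10 genes, of which none of 6 was open, are known from neurons of the vomeronasal organ. The deposited false discovery rate of cleavage, listed only below 0.05, comes from the same libraries as the peaks. It is therefore no independent reading of genes picked for having no peak. In 18 of the 19, no base within 1000 bases of the first coding start was listed in either library. The exception was H2-T22, with 36 bases in replicate 1 and none in replicate 2. Among all 1049 protein-coding genes of chromosome 17, with or without a promoter peak, 459 likewise had no listed base.

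The same rate showed the shape of the open promoters. At H2-K1 its −log10 value rose to 8.33 in replicate 1 and 3.25 in replicate 2, and at H2-D1 to 10.95 and 11.85. H2-T24 had 3.84 and 9.89 and H2-M3 5.68 and 7.75. This −log10 value was thus higher in replicate 2 at H2-D1, H2-T24 and H2-M3 and in replicate 1 at H2-K1. It is a measure of significance, and the peak values of H2-D1 (4.45 and 3.34) and H2-T24 (3.24 and 3.04) were lower in replicate 2. The −log10 value of H2-Ab1 was 4.13 and 4, and that of H2-Eb1 3.15 and 1.73. H2-Aa had 3.22 in replicate 1 and no listed base in replicate 2. H2-Q7, which was not open in both libraries, differed most between them, with 1339 listed bases and a highest value of 29.02 in replicate 1 and no listed base in replicate 2. Its highest peak value in replicate 1 was only 1.16, below the 4.45 of H2-D1. The repeated sequence at the H2-Q7 start is described below.

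**Figure D3:**
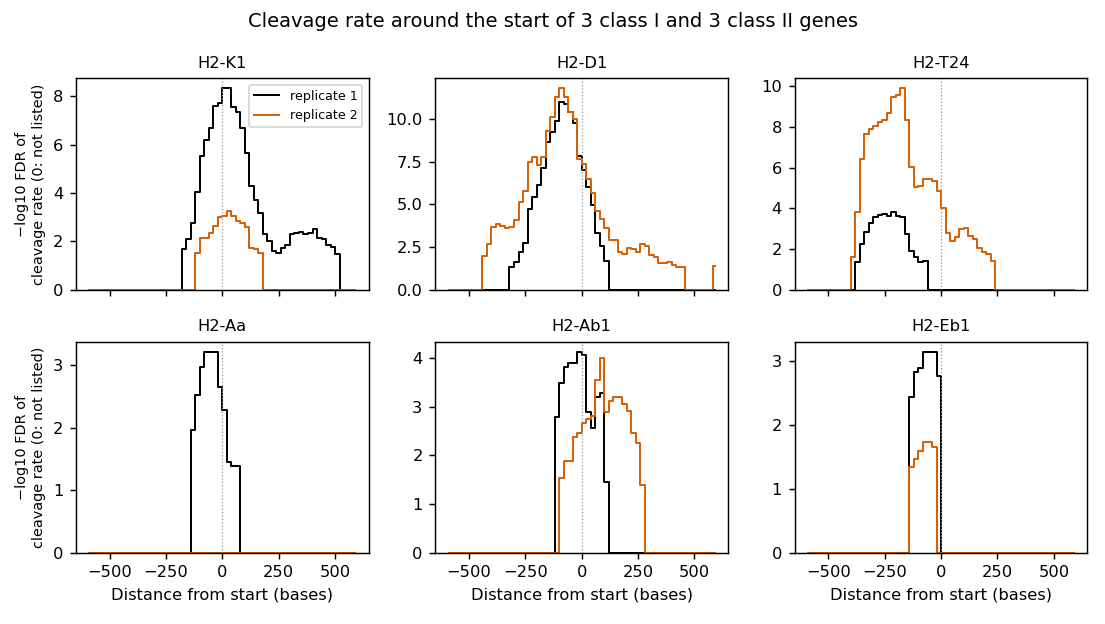
Highest −log10 false discovery rate of the cleavage rate in each 20-base bin (y axis, 0 where nothing is listed, scales differ between panels) against distance from the start in bases, downstream to the right, for 3 class I and 3 class II genes. Black is replicate 1 and orange replicate 2. Distances are from the RefSeq start for H2-D1, whose first coding start lies 151 bases before its peak, and from the first coding start for the other genes. H2-D1 is alike in height in both libraries, H2-T24 is higher in replicate 2, and H2-Aa has no listed base in replicate 2.

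Promoter letters were searched on both strands of the RefSeq windows, which run from 250 bases before a start to 50 bases from it on and were found for 31 of the 34 members (not H2-Q1, H2-Ab1 and H2-T24). The Y box letters CCAAT stood in 19 of 22 class I windows and 7 of 8 class II windows, against 38.7% of all windows. The CRE core TGACG stood in 11 of 22 and 1 of 8, against 24.4%. The NF-kappaB letters (GGG, any 2 bases, TTCCC) stood in 5 of 22 and 2 of 8, against 1.82%. The X box core AGCAACNG stood in 1 of 22 and 2 of 8, against 4.89%. The class I gene was H2-M3, with the letters past the RefSeq start, at 40 to 47. The 2 class II genes were H2-Eb1 and H2-Eb2. The GC box GGGCGG, found in 48% of all windows, stood in 2 of 22 and none of 8. Letters for interferon regulatory factors (GAAA, any 2 bases, GAAA) stood in 2 of 22 and none of 8, against 3.46%. Only exact matches were counted for each of these letters. A low count, as for the X box core and the interferon letters, therefore does not show that such a site is absent. Those for PU.1, GAGGAA, stood in 11 of 22 and 1 of 8, against 27.2%, and those for GATA factors, AGATAA, in 2 of 22 and 2 of 8, against 9.72%. Many of these windows share sequence by descent, so the genes are not independent cases. The CTCF letters can hold a CCAAT box, as they do in H2-M10.4.

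Few of these letters lay in footprints. At H2-D1 the CRE core at -101 to -97, counted from the RefSeq start, overlapped a footprint in each library, and so did the NF-kappaB letters at -171 to -162, by their edge. At H2-K1 the CRE core at -41 to -37 overlapped a footprint in each library, though in replicate 2 that footprint lay outside the listed peak. The NF-kappaB letters of H2-K1, at -111 to -102, overlapped none. At H2-M3 the CRE core was in a footprint of replicate 2, and the CCAAT box at -36 to -32 was in one of 17 bases in both libraries. In class II, the CCAAT box of H2-Aa (-48 to -44) overlapped a footprint of replicate 1, and none in replicate 2. That of H2-Eb1 (-59 to -55) met a footprint of replicate 1, at -67 to -58, only by its edge, and none in replicate 2. The X box core of H2-Eb1, at -92 to -85 and in the peak of both libraries, overlapped no footprint. H2-Eb2 carries the X box core at -133 to -126 and the CCAAT box at -100 to -96, at the spacing of H2-Eb1, with no peak and no footprint. A footprint lay in the promoter peaks of both libraries in 4 of the 6 open class I genes and in 1 of the 3 open class II genes, H2-DMa, against 94.2% of all genes open in both. The part that the low promoter values of these genes have in that count was not tested.

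The genes that serve the class I pathway were mostly open. Of 18, 16 were open in both libraries (88.9%), against 54.1% of all protein-coding genes. B2m, the light chain of every class I molecule, had 5.26 in replicate 1 and 3.59 in replicate 2, above both classical heavy chain genes. Tap1 and Psmb9, a peptide transporter chain and an immunoproteasome subunit, share 1 promoter peak of 5.71 and 2.98, and Tap2 had 3.43 and 2.73. Tapbp, which encodes tapasin, had 8.45 and 4.02, and the chaperone genes Calr, Canx and Pdia3 had 21.8 and 7.87, 15 and 7.78, and 9.91 and 5.74. Psmb10, Psme1, Psme2, Erap1, Tapbpl, Irf1 and Irf2 were also open, between 1.1 and 9.29 in replicate 1 and between 1.37 and 4.85 in replicate 2. The immunoproteasome gene Psmb8 had a peak of 1.31 in replicate 1 alone, and Nlrc5, the class I coactivator, had none in either.

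The genes that serve the class II pathway were open in part. Of 12 genes 11 were matched (Ifi30 was not analysed here), and 8 were open in both libraries (72.7%, with 54.1% over all protein-coding genes). The subunits of the RFX and NF-Y complexes, made in most cells, were all open, from 4.23 and 2.2 at Rfx5 to 29.4 and 10.7 at Nfya. Creb1 had 13.4 and 7.25, and Ctsl, a lysosomal protease gene, 6.83 and 3.42. Ciita, the class II coactivator, Cd74, the invariant chain, and Ctss, the protease that trims it in antigen-presenting cells, had no promoter peak in either library.

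Markers of the cells a fetal liver can hold were counted by the same rule. Of 10 erythroid markers 9 were open in both libraries, and of 10 hepatoblast markers 4, against 54.1% of all genes. Foxa3 (9.41 and 4.33), Cebpa (3.06 and 2.16), Afp (1.15 and 0.624) and Trf (1.37 and 0.79) were open, Ttr and Foxa2 had a peak in replicate 1 alone, and Alb, Apoa2 and Hnf4a had none. Of 10 macrophage markers only Spi1 was open (1.5 and 1.47), and Adgre1, Csf1r, Cd68 and C1qa had no peak. Of 8 dendritic cell markers Zbtb46 and Irf8 were open and Itgax was not, of 8 B cell markers Pax5, Ebf1 and Vpreb1 were open and Cd79a and Ms4a1 were not, and of 8 endothelial markers only Kdr was open. In bulk tissue, fewer cells of a type and less open chromatin per cell cannot be told apart, and the part of cell composition in the MHC values was not tested.

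The MHC genes lie in 4 stretches, and their open promoters were unevenly spread. Between H2-K1 and H2-Eb2, over 0.345 Mb, 5 of 11 members and 7 of 9 other genes were open in both libraries. Between H2-D1 and H2-Q10 2 of 7 members were open and no other protein-coding gene lies there. Between H2-T24 and H2-T3 2 of 4 members and none of 5 others were open. Members are set by symbol alone, so an MHC gene under another symbol would count among the others. Between H2-M10.2 and H2-M2, over 1.2 Mb, 1 of 12 members and 7 of 33 others were open, and 19 of those others are olfactory receptor genes, none open. Peaks of any kind thinned along the same order in replicate 1, from 10.1 per 100 kb in the first stretch through 5.19 and 3.25 to 2.33 in the last, while replicate 2 had 7.24, 3.3, 5.96 and 1.58. Over the whole span from H2-K1 to H2-M2, 65 of 139 other genes were open (46.8%), against 10 of the 34 members.

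Distal sites are peaks of replicate 1 that a peak of replicate 2 overlapped by at least 1 base, more than 1000 bases from any annotated start and within 50000 bases of a member. There were 21 such sites of 11583 in the genome, 15 near class I genes, 6 near class II genes and none near both. At least 1 site lay near 12 of 24 class I genes and all 9 class II genes, against 54.7% of all protein-coding genes. The mean was 1.21 sites per class I gene, 2 per class II gene and 1.26 per gene overall. The class II genes are packed close, so 1 site counts for several of them, such as the site at chr17:34127581-34127780 in an intron of H2-DMa, which lies near 4. H2-D1 had the most sites, 5, and H2-T24, H2-T23 and H2-T22 shared 4. H2-Q4, H2-Q6, H2-Q7, H2-M3 and H2-M2 had none. Near means by distance alone: the nearest start of a protein-coding gene was that of a member for 10 of the 21 sites (6 of 15 near class I and 4 of 6 near class II) and that of another gene for 11. Another gene here means one without the H2 symbol.

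The class I sites had the higher values. Their median was 2.56 in replicate 1 and 1.69 in replicate 2, against 1.26 and 1.11 for class II and 1.4 and 1.05 over all shared distal sites, and the ranges overlapped. The 3 highest are printed because they exceed every peptide-presenting gene's promoter value. They are given on the plus strand of GRCm38, at the coordinates of replicate 1, with footprint bases of either library in capitals. The site at chr17:35997041-35997220, 23305 bases from the start of H2-T24 and nearer to that of the non-MHC gene Gnl1, reached 9.17 (8.52 to 9.85) and 3.85 (3.41 to 4.33). The site at chr17:35258241-35258440, 4290 bases before H2-D1, reached 6.99 (6.42 to 7.59) and 3.77 (3.34 to 4.25). The site at chr17:34101601-34101780, 9179 bases from the start of H2-Oa, reached 4.81 (4.34 to 5.31) and 3.4 (2.98 to 3.85).
Near H2-T24: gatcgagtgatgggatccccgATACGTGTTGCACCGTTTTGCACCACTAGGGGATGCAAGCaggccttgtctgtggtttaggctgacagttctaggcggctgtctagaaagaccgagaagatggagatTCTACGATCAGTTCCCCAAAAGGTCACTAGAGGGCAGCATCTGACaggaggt
Near H2-D1: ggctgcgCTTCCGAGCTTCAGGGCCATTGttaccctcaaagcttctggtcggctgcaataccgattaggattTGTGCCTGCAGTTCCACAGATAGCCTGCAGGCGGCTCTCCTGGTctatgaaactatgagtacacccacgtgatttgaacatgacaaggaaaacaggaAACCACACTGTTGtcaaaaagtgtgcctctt
Near H2-Oa: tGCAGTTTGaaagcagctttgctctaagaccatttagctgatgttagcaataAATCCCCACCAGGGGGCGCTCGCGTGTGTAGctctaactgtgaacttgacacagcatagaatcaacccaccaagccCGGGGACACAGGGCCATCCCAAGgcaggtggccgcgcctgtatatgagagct

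In 200-base windows centred on the sites, the CTCF letters stood in 9 of 21 member sites (42.9%), against 19.3% of all shared distal sites. Class I had 7 of 15 and class II 2 of 6. Each of the 9 overlapped a footprint, 7 in both libraries and 2 in 1. The sites printed near H2-D1 and H2-Oa were among those in both libraries, and the one near H2-T24 did not hold the letters. Only exact matches were counted, so a near match there would have been missed. The site at chr17:34264806-34265211, in an exon of H2-Ab1, was higher in replicate 2, at 0.752 in replicate 1 and 1.33 in replicate 2, with an excess log2 ratio of 1.13, beyond the middle range of shared peaks. The site at chr17:34170861-34171060, 14016 bases from H2-DMb1, went the other way, with 1.31 and 0.624 and an excess of -0.76. Distal peaks listed in replicate 1 alone numbered 10 near class I and 6 near class II, and those in replicate 2 alone 3 and none. Over the whole genome the same skew held, with 11458 distal peaks in replicate 1 alone and 3356 in replicate 2 alone.

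**Figure D4:**
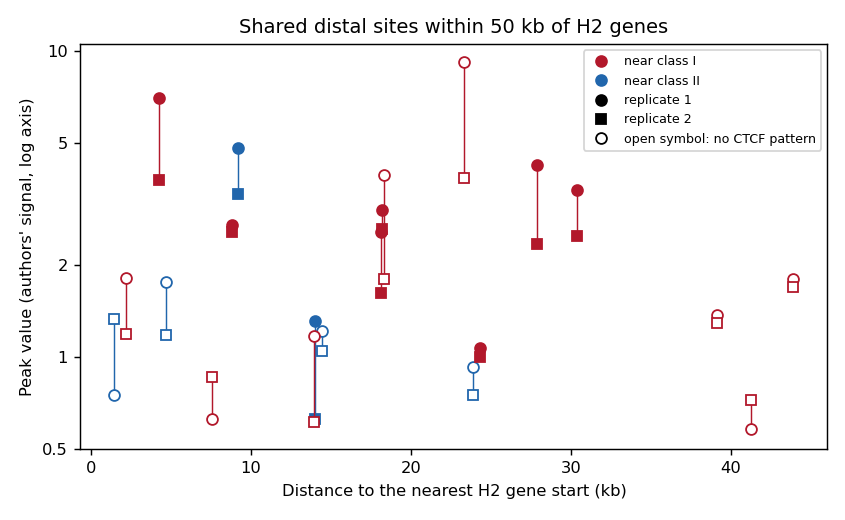
Value of each of the 21 shared distal sites (y axis, the authors' signal on a log scale) against distance to the nearest H2 gene start (x axis, kb), with circles for replicate 1 joined to squares for replicate 2, red near class I and blue near class II; filled symbols hold the CTCF letters. The highest site, at 9.17 and 3.85, holds none, and 7 of the 9 filled sites reach 1.62 or more in replicate 2.

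Duplicated sequence bears on how reads are placed among these genes, and the sources used here do not say what became of reads with several placements. Over the 36-base words within 1000 bases of the first coding start, a median of 9.45% recurred elsewhere in the genome for class I genes, 4.02% for class II genes and 1.48% for all protein-coding genes of chromosome 17. Over 76-base words these medians were 0.65%, 0% and 0%, and the sources used here give no read length. The share of 36-base words was 67.4% at H2-Q6, 64% at H2-Q7, 56.7% at H2-T23 and 37.1% at H2-T22, and that of 76-base words 45.8%, 38.6%, 32.7% and 9.35%. For H2-K1 and H2-D1 it was 23.7% and 10.7% of 36-base words, and 1.97% and 0.0519% of 76-base words. The part of recurrence in the lower peak values of H2-K1 was not tested. H2-Q6 and H2-Q7, whose peaks were each listed in 1 library only, share 47.6% of their 36-base words with each other, so their calls are uncertain. Of 36-base words, members open in both libraries had a median of 5.78%, those with a peak in 1 library 4.43% and those with none 6%. The 11 unopened H2-M genes ranged from 0% at H2-M11 and H2-M2 to 18.1% at H2-M10.3. What recurrence contributes to the missing peaks was not tested.

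**Figure D5:**
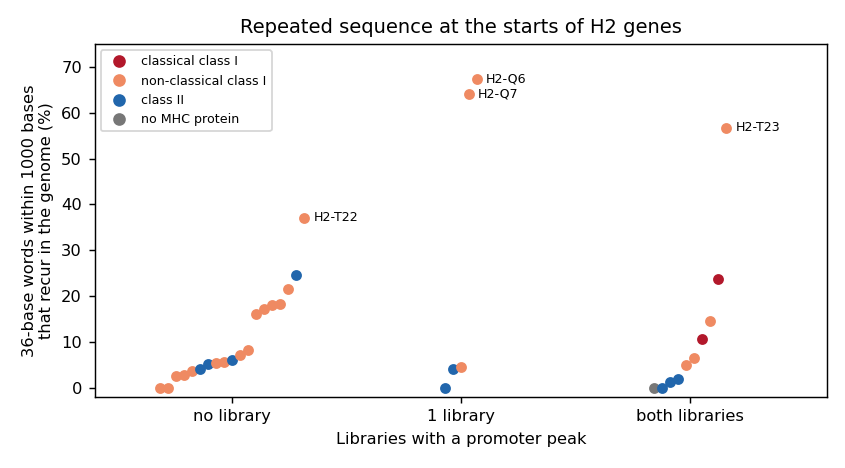
Share of 36-base words within 1000 bases of the first coding start that recur in the genome (y axis, %) for each of the 34 genes, grouped by how many libraries had a promoter peak, in ascending order within each group and coloured by class. H2-Q6, H2-Q7, H2-T23 and H2-T22 stand above 30%, spread over all 3 groups.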

How the data were processed

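DNase-seq was made from E13.5 mouse liver in 2 libraries of 1 group. Per the file headers and README texts, the authors derived each table from that library's own filtered alignments to mm10, without pooling. The deposited peak value is a depth-normalised signal, the deposited cleavage false discovery rate is a q-value listed only below 0.05, and the deposited footprint score is a constant, for which reason only the positions of footprints were used. No source used here names the caller or its settings. Longer peak lists held 47198 and 36523 peaks, the shorter ones 29534 and 23395, and footprints numbered 123897 and 94430. If 1 step of the value is 1 read, the depth in units of 1000000 reads was 81.2 and 72.1.

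Peaks were assigned to GENCODE vM21 genes, and letters were searched in RefSeq (GRCm38.p6) promoter windows and the GRCm38 genome, with Python 3.11.15, numpy 2.4.6 and numba 0.67.0. All 31 windows equalled the genome. The interval of a value is an exact Poisson one (scipy 1.17.1), for counting error only. As a check of the counting code only, simulated peaks planted at 200 promoters and 50 distal sites were all recovered. They were planted to meet the counting rules, so their recovery does not measure how well weak promoters are found. All members were named, those with a peak by value; the lists of pathway and marker genes, the letters and the members were chosen with earlier results of these data known. No test was run, since there is 1 group. Alternatives were the shorter lists, the upper 50% of peaks, other distances, starts and overlaps, and each library alone. Some genes of the lists are counted but not reported by name here.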

Additional observations from a re-analysis of the deposited data

How the results depend on the processing

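Over 13 counts and medians, 79 alternative values were computed, of which 61 stayed within 1.5 times the main count or, for a median, within 1 SD of that class's medians in the 2 libraries, and 18 moved. The class I medians of the libraries nearly coincide, so small shifts count as moves there. With the upper 50% of peaks by value, members open in both libraries fell from 10 to 6, open class II genes from 3 to 1 and class II distal sites from 6 to 1. With the shorter peak lists, class II distal sites fell to 2 and class I genes with a footprint in both libraries from 4 to 2, and the class I medians became 2.87 and 1.59 and the class II median of replicate 2 became 4.53. It was also 4.53 when peaks nearer to another gene's start were left out, an alternative chosen after seeing the data. Within 2500 bases of a start, the class I median of replicate 1 was 1.48 and the class II median of replicate 2 was 1.33, and within 500 bases the class I median of replicate 2 was 1.46. Within 20000 bases, class I distal sites numbered 9. Each library taken alone gave 11 to 14 open members, 7 to 8 of class I and 3 to 5 of class II, 16 to 17 class I pathway genes and 8 class II pathway genes. It gave 18 to 25 class I distal sites, 6 to 12 class II distal sites, and 5 to 7 class I and 1 to 5 class II genes with a footprint. The cause of each move was not tested. All genes open in both libraries fell to 48.8% with the shorter lists and 45.7% with the upper 50% of peaks.

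No paired analysis was possible because the 2 libraries form 1 group. Depth limits what an absent peak shows, since a gene below a library's threshold is not listed.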
